A study of Mus musculus with 6 samples.

Results

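A set of 9 transcripts of the FOXO1 and KLF2 programme of lymphoid homing and quiescence were followed in CD4+ T cells exposed to itaconate. They were Foxo1, Foxp1, Klf2, Klf3, S1pr1, Ccr7, Il7r, Cxcr4 and Btg1, taken by their symbols as a list of 9 genes from a table of 55401 entries. Each of the 9 was found under its own symbol, and each was among the 13180 entries tested. CD4+ T cells are the helper lineage of T lymphocytes. They were isolated from the spleen of naive wild-type C57BL/6 mice, stained with the division dye CFSE, and stimulated for 48 h through CD3 and CD28 by antibodies, with 200 U of IL-2 added. The culture medium held 5 mM itaconate (3 libraries), a dicarboxylate that activated macrophages make, or 5 mM NaCl as the control (3 libraries). Both groups were therefore activated cells, and no unstimulated cells are analysed here. The control columns carry the code NAC, which the sources used here do not explain and which is taken to mean NaCl, the control named in the labels. Whether the libraries of a group came from separate mice or cultures is not stated, so the p-values speak only of the spread among these 6 samples, and that spread may be technical.

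FOXO1 is a forkhead transcription factor of resting T cells that is kept out of the nucleus when phosphoinositide 3-kinase and AKT are active. In naive T cells it maintains the gene for the IL-7 receptor chain, the lymph node homing gene Ccr7, and Klf2, whose zinc finger product in turn activates S1pr1. CCR7 draws T cells into lymph nodes and S1PR1 lets them leave, and activation through the T cell receptor represses much of this set, which cells can regain after several divisions.

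Of the 9 transcripts, 5 were higher and 1 was lower with itaconate, and 3 did not pass the test. Klf3, Klf2, Ccr7, S1pr1 and Foxp1 rose, Cxcr4 fell, and Foxo1, Il7r and Btg1 did not pass (limma, adjusted p under 0.05 after Benjamini-Hochberg). Over all tested entries 36.0% passed, with 18.2% higher and 17.8% lower with itaconate. Foxp1, Foxo1 and Btg1 lay within the central 50% of all log2 fold changes, which ran from -0.34 to 0.32. The median log2 fold change of the 9 was 0.25, beside -0.00088 over all tested entries. The values of the groups did not overlap for 6 of the 9 transcripts, beside 48.4% of all tested entries. The counts moved with single libraries: 3 members were higher without itaconate replicate 2, 0 were lower without itaconate replicate 1, NaCl replicate 1 or NaCl replicate 2, and 3 were lower without itaconate replicate 3.

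**Figure D1:**
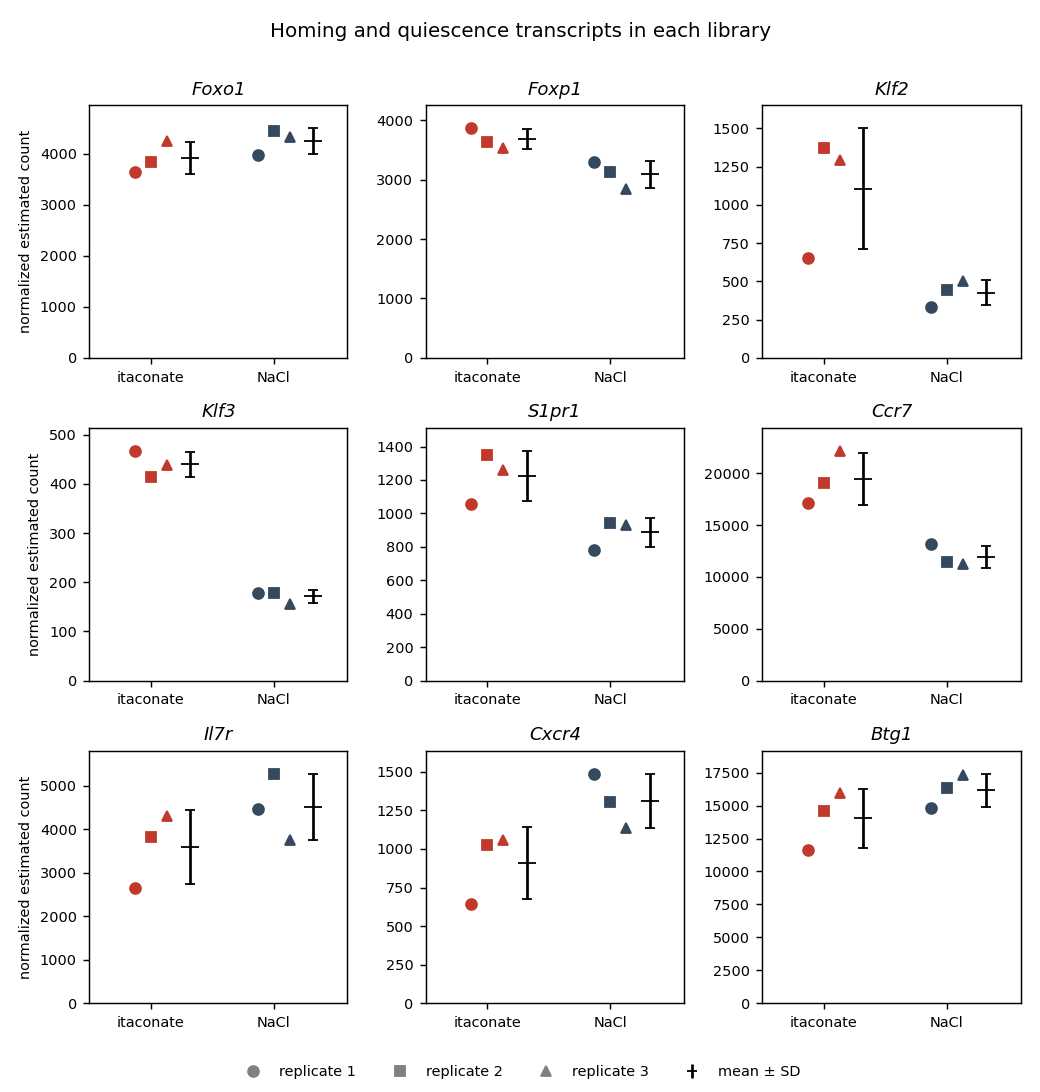
Normalized estimated count (vertical axes, linear, starting at 0) of each of the 9 transcripts in the 3 itaconate libraries (red, left) and the 3 NaCl libraries (blue, right). Symbols mark the replicate number and black bars the mean ± SD. The Klf3 points lie between 414 and 467 with itaconate and between 156 and 179 with NaCl, whereas the Foxo1 points of the groups overlap.

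The forkhead factors moved little. Foxo1 (chromosome 3, 52268336 to 52353221, plus strand, in GENCODE M21 of GRCm38) had normalized estimated counts of 3650.2, 3839 and 4258 in the itaconate libraries, against 3972, 4453 and 4327 in the NaCl libraries. The itaconate values were on the low side, but the highest of them lay above the lowest NaCl value, so the groups overlapped. Foxo1 averaged 3916 ± 311 with itaconate and 4251 ± 249 with NaCl (SD, n = 3 each). Its log2 fold change was -0.12 ± 0.089 (SE, adjusted p = 0.322), with a 95% interval of -0.31 to 0.074. The interval holds no change as well as a loss of up to 0.31 on the log2 scale. An antisense gene, Gm20402, overlaps an exon of Foxo1 and had values of 0 to 98.5. Whether counting used strand is not given, so reads of the pair cannot be told apart.

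Foxp1 (chromosome 6, 98925338 to 99522721, minus strand) encodes a forkhead factor that holds naive T cells in quiescence. It had 3863, 3636 and 3535 in the itaconate libraries, against 3299, 3130 and 2839 in the NaCl libraries. The groups did not overlap, but the gap between them was smaller than the range within either. Foxp1 rose 1.19-fold in the fit, with a mean of 3678 ± 168 in itaconate and 3089 ± 233 in NaCl libraries (SD, n = 3 each). The log2 fold change was 0.25 ± 0.088 (SE, adjusted p = 0.0399). This call ended when any of 4 libraries was left out. The adjusted p was 0.121 without itaconate replicate 1, 0.0965 without itaconate replicate 2, 0.0805 without NaCl replicate 2 and 0.146 without NaCl replicate 3 (0.0112 to 0.146 across the 16 alternatives). It also ended with no filter on low values (0.061), after upper-quartile rescaling (0.0577) and without the intensity trend of the variance (0.105).

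The Krüppel-like factors Klf2 and Klf3 had the largest changes of the 9 transcripts. Klf2 (chromosome 8, 72319033 to 72321656, plus strand) encodes the zinc finger factor that activates S1pr1 and favours quiescence. It had 656, 1374 and 1290.2 in the itaconate libraries, against 335, 446 and 500.1 in the NaCl libraries. Itaconate replicates 2 and 3 were far above every control, while itaconate replicate 1 exceeded the highest control by a much smaller margin. Klf2 averaged 1106 ± 393 with itaconate and 427 ± 84.5 with NaCl (SD, n = 3 each), which the fit gave as 2.49-fold. Its log2 fold change was 1.32 ± 0.24 (SE, adjusted p = 0.00109) and lay at percentile 97.0 of all tested entries. The estimate ran from 1.13 to 1.66 when a library was left out, and the call held each time.

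Klf3 (chromosome 5, 64803388 to 64832901, plus strand) encodes a related factor that mainly represses transcription. It had 467, 414 and 437 in the itaconate libraries, against 178, 179 and 156 in the NaCl libraries. The libraries of each group lay close together and far from those of the other group. Klf3 averaged 439 ± 26.2 with itaconate and 171 ± 13.1 with NaCl (SD, n = 3 each). The 2.56-fold rise was the firmest of the 9 (1.36 ± 0.15 SE on the log2 scale, adjusted p = 3.14e-05). Its estimate stayed between 1.29 and 1.40 over the 16 alternatives. The antisense gene Gm20033, which overlaps exons of Klf3, had values of 5.3 to 22.9, and reads of that pair cannot be told apart either.

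The windows of 250 bases before the RefSeq starts of Klf2 and Klf3 are shown because these transcripts rose by like amounts. Sequences are from RefSeq on GRCm38.p6, 5′ to 3′ on the gene's strand, and a window was found for 7 of the 9 genes (9 windows, 3 of them of Foxp1). RefSeq and GENCODE starts differ. The windows of Klf2 and Klf3 run past the GENCODE starts, and those of Il7r and Foxp1 lie within the GENCODE genes. Capitals mark matches to the GC box GGGCGG, a site type of the SP and KLF families, on either strand, and in Klf2 also a match to the MEF2 consensus.
Klf2, chr8:72318812-72319061, plus strand: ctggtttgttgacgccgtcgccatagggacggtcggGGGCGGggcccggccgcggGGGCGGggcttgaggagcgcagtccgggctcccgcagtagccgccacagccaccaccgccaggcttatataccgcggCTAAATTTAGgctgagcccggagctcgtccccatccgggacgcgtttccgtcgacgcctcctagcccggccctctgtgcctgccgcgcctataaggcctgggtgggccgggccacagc
Klf3, chr5:64803271-64803520, plus strand: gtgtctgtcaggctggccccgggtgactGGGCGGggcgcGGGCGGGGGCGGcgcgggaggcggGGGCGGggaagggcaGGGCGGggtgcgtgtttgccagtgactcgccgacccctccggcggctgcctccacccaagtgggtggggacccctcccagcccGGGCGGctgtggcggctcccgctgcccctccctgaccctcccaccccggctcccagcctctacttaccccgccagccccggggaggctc
Klf2 held 2 GC boxes and Klf3 held 6, and 32.7% of all 32851 promoter windows of that length held at least 1. Foxo1 and Btg1, which did not pass, held 2 each, and Cxcr4, which fell, held 3. The Foxp1 windows held 3, 1 and 0, and that of Il7r held 0. Among the genes with a window, GC boxes thus did not separate the transcripts that rose from the others. No window was found for S1pr1 and Ccr7, which also rose. The Klf2 window held the only MEF2 consensus match among the members, in bases 118 to 109 before the start. Such a match was in 0.508% of all windows. The MEF2 search was added after the sequences had been read, so this share does not show the match to be unusual. MEF2 factors are known to drive Klf2 in endothelial cells. The CACCC box CCACACCC was in no window of a member and in 3.20% of all windows. The windows of Klf2 and Klf3 held 29 and 23 CpG dinucleotides. Those of Btg1, Foxo1 and Cxcr4 held 21, 20 and 19, the 3 of Foxp1 held 34, 11 and 3, and that of Il7r held 1, beside a median of 6 over all windows. The windows of Klf2 and Klf3 and the richest of Foxp1 thus held more than any window of the transcripts that did not rise. The other Foxp1 windows held fewer than those of Btg1, Foxo1 and Cxcr4. Without windows for S1pr1 and Ccr7, the count cannot decide for the transcripts that rose as a set. A match is a description of the letters and does not show binding.

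The receptors for lymph node entry and exit were higher with itaconate. Ccr7 (chromosome 11, 99144196 to 99155077, minus strand) encodes the receptor for the lymph node chemokines CCL19 and CCL21. It had 17136, 19058 and 22151 in the itaconate libraries, against 13163, 11489 and 11206 in the NaCl libraries. Every itaconate library lay above every control. Ccr7 averaged 19448 ± 2530.1 with itaconate and 11953 ± 1058 with NaCl (SD, n = 3 each), a 1.62-fold rise (log2 fold change 0.70 ± 0.10 SE, adjusted p = 2.79e-04). The estimate ran from 0.60 to 0.88 over the 16 alternatives, with the call held in all of them, and the largest value came with quantile normalization.

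S1pr1 (chromosome 3, 115710433 to 115715072, minus strand) encodes the sphingosine 1-phosphate receptor through which T cells leave lymphoid tissue. It had 1056, 1349 and 1261 in the itaconate libraries, against 783, 941 and 933 in the NaCl libraries. The groups did not overlap, with itaconate replicate 1 nearest to the controls. S1pr1 averaged 1222 ± 150.5 with itaconate and 886 ± 89.0 with NaCl (SD, n = 3 each), a 1.38-fold rise (log2 fold change 0.46 ± 0.12 SE, adjusted p = 0.0103). Without itaconate replicate 2 the call ended (0.39 on the log2 scale, adjusted p = 0.0604, 0.00135 to 0.0604 across the 16 alternatives), as it did without the intensity trend of the variance (0.0531).

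Cxcr4 (chromosome 1, 128588199 to 128592293, minus strand) encodes the receptor for CXCL12, which retains cells in bone marrow and guides them within lymphoid tissue. It had 641, 1025 and 1058 in the itaconate libraries, against 1488, 1305 and 1136 in the NaCl libraries. The groups did not overlap, but itaconate replicates 2 and 3 came close to NaCl replicate 3. Cxcr4 averaged 908 ± 232 with itaconate and 1310 ± 176 with NaCl (SD, n = 3 each), a log2 fold change of -0.56 ± 0.17 (SE, adjusted p = 0.0243). The call rested on single libraries. Without itaconate replicate 1 the log2 fold change was -0.32 (adjusted p = 0.0743), without NaCl replicate 1 it was -0.46 (0.0913), and without NaCl replicate 2 it was -0.55 (0.0751) (0.00754 to 0.121 across the 16 alternatives). The window before its RefSeq start is shown as that of the transcript that fell, with 3 GC boxes in capitals, here as CCGCCC on the gene's strand.
Cxcr4, chr1:128592300-128592549, minus strand: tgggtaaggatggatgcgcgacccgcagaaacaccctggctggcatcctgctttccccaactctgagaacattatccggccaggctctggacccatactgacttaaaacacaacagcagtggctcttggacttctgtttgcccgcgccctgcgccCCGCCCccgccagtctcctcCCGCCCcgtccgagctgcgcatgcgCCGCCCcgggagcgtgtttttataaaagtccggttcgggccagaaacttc

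Il7r and Btg1 lay lower with itaconate without passing the test. Il7r (chromosome 15, 9505788 to 9530176, minus strand) encodes the IL-7 receptor alpha chain, which keeps resting T cells alive. It had 2647, 3817 and 4294 in the itaconate libraries, against 4469, 5276 and 3758 in the NaCl libraries. The groups overlapped, and the spread within each was wide. Il7r averaged 3586 ± 848 with itaconate and 4501 ± 760 with NaCl (SD, n = 3 each; log2 fold change -0.34 ± 0.16 SE, adjusted p = 0.117, 95% interval -0.69 to 0.0076). Without itaconate replicate 3 it passed (-0.49 on the log2 scale, adjusted p = 0.0243, 0.0243 to 0.450 across the 16 alternatives), and without itaconate replicate 1 the log2 fold change was -0.14.

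Btg1 (chromosome 10, 96617006 to 96622809, plus strand) encodes an antiproliferative factor that promotes mRNA deadenylation and T cell quiescence. It had 11596, 14596 and 15922 in the itaconate libraries, against 14838, 16306 and 17345 in the NaCl libraries. Itaconate replicate 1 lay below all other libraries, and the other itaconate values overlapped with the controls. Btg1 averaged 14038 ± 2216 with itaconate and 16163 ± 1260 with NaCl (SD, n = 3 each; log2 fold change -0.21 ± 0.11 SE, adjusted p = 0.163, 95% interval -0.46 to 0.033). It passed without itaconate replicate 3 (-0.31 on the log2 scale, adjusted p = 0.0416, 0.0294 to 0.806 across the 16 alternatives), and the log2 fold change was -0.081 without itaconate replicate 1 and -0.039 after quantile normalization. Its window is shown because it was the only one of the 9 member windows with the forkhead core GTAAACA, here as TGTTTAC in bases 204 to 198 before the start. This core was in 3.17% of all windows. Capitals mark it and 2 GC boxes.
Btg1, chr10:96616751-96617000, plus strand: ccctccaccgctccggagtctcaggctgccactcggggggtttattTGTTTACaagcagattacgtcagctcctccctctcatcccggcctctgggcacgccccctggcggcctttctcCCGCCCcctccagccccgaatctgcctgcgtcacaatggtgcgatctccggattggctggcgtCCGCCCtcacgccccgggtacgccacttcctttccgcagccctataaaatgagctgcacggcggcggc

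**Figure D2:**
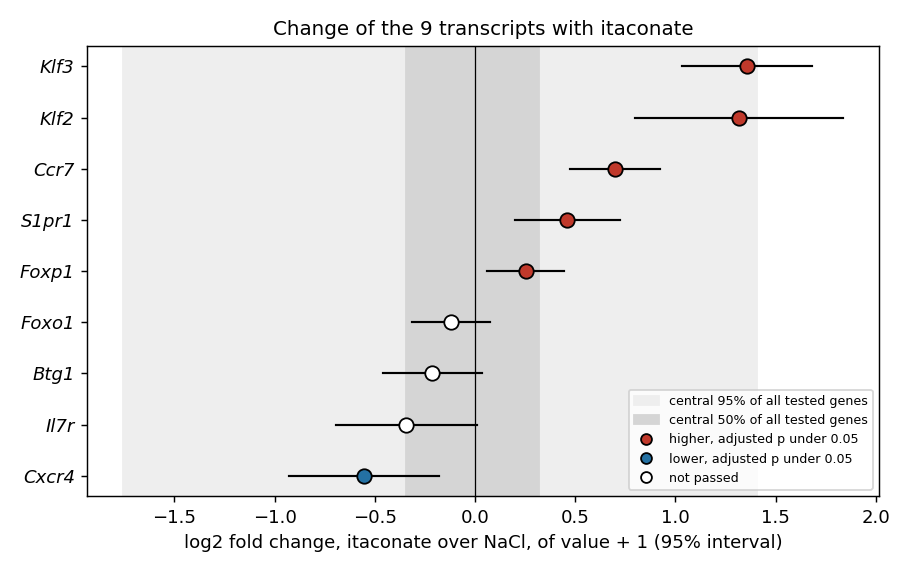
Log2 fold change of value + 1, itaconate over NaCl (horizontal axis), with its 95% interval for each of the 9 transcripts. Grey bands hold the central 50% and 95% of all 13180 tested entries. Klf3 (1.36) and Klf2 (1.32) lie near the upper edge of the wide band, and the intervals of Foxo1, Btg1 and Il7r cross 0.

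Within the itaconate group, replicate 1 was at an end of the range for each of the 9 transcripts. It had the lowest value of the 3 itaconate libraries for 7 of the 9 transcripts, the exceptions being Foxp1 and Klf3, where it had the highest. For Foxo1 and Ccr7, replicates 1 and 2 lay closer together than replicates 2 and 3. Over all tested entries replicate 1 was lowest for 35.5%. In the NaCl group replicate 1 was lowest for 4 of the 9, beside 35.3% of all entries. The coefficient of variation among itaconate libraries was 35.5% for Klf2, 25.6% for Cxcr4 and 23.6% for Il7r, and 4.57% for Foxp1 and 5.97% for Klf3. The median over all tested entries was 11.9% in the itaconate group and 11% in the NaCl group. Among the members that rose, Klf2 thus varied most between itaconate libraries, and Foxp1 and Klf3 least.

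Ratios within a library do not change when a library is rescaled by a single factor. They were chosen after the values had been seen. The ratio of Klf2 to Foxo1 values was 0.18, 0.358 and 0.303 in the itaconate libraries, against 0.0842, 0.10 and 0.116 in the NaCl libraries. The ratio of Klf3 to Foxo1 averaged 0.113 ± 0.0133 with itaconate and 0.0404 ± 0.00443 with NaCl (SD, n = 3 each). Thus both Krüppel-like transcripts were more abundant relative to Foxo1 in every itaconate library. The ratio of Klf3 to Klf2 overlapped between the groups, at 0.451 ± 0.227 with itaconate and 0.415 ± 0.111 with NaCl (SD, n = 3 each; two-sided exact permutation p = 0.9). The ratio of S1pr1 to Klf2, its activator, was 1.61, 0.982 and 0.978 in the itaconate libraries, against 2.34, 2.11 and 1.87 in the NaCl libraries. S1pr1 thus rose less than Klf2 in every itaconate library. The ratio of Ccr7 to Cxcr4 was 26.7, 18.6 and 20.9 with itaconate, against 8.85, 8.80 and 9.86 with NaCl. For each of these ratios but that of Klf3 to Klf2 the groups did not overlap (two-sided exact permutation p = 0.1 each, the smallest that 3 libraries against 3 allow). For Ccr7 to Cxcr4 this outcome was fixed by the single values, since every itaconate library had more Ccr7 and less Cxcr4 than every control. As the ratios were picked from seen values, these p-values add no support.

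**Figure D3:**
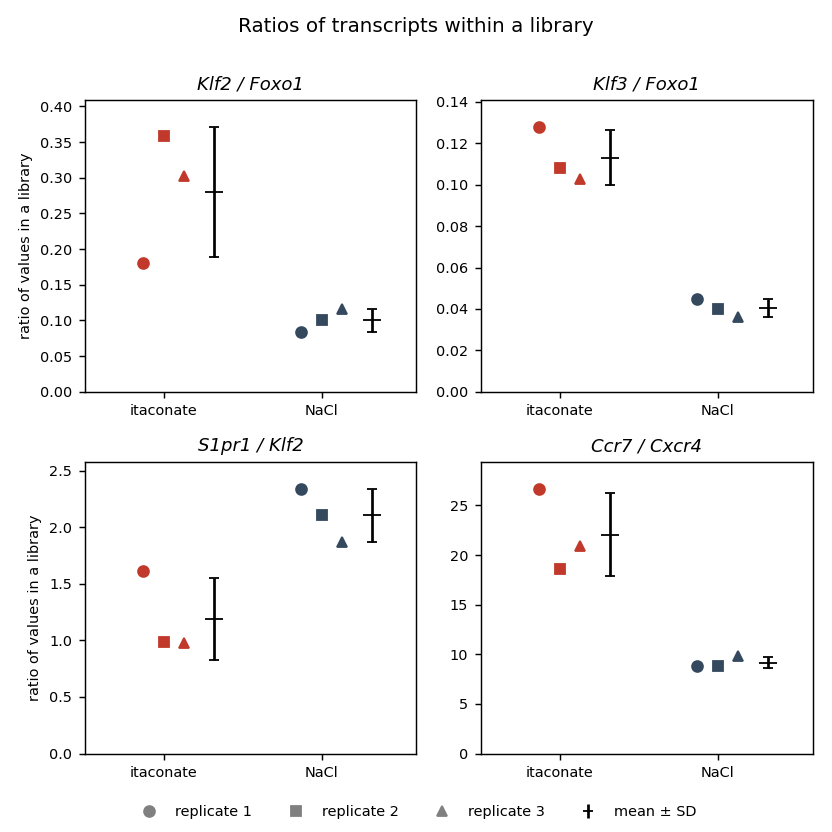
Ratio of the values of 2 transcripts in the same library (vertical axes, linear, starting at 0) for the 3 itaconate libraries (red, left) and the 3 NaCl libraries (blue, right), with the mean ± SD in black. Klf2, Klf3 and Ccr7 rise relative to their partners, and the S1pr1 to Klf2 ratio is lower in each itaconate library.

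Levels can be compared between genes only per length, so values were divided by the length of all annotated exons of a gene in kilobases. Ccr7 was the most abundant of the 9 in both groups, with 9832 ± 1279 normalized estimated counts per kilobase of exon with itaconate and 6043 ± 535 with NaCl (SD, n = 3 each). Btg1 came next, with 2661 ± 420.1 per kilobase with itaconate and 3064 ± 239 with NaCl. Below it in the itaconate group stood Il7r (769), Klf2 (599), Cxcr4 (502), Foxo1 (452) and S1pr1 (401), each overlapping with the next in order, then Foxp1 (268) and Klf3 (39.1). In the NaCl group the order was Il7r (965), Cxcr4 (724), Foxo1 (491), S1pr1 (291), Klf2 (231), Foxp1 (225) and Klf3 (15.2). There Il7r overlapped with Cxcr4, and Klf2 with both S1pr1 and Foxp1. Klf2 thus stood above Foxo1 per length by the mean of the itaconate group and below it in the NaCl group. Klf3 also had the lowest mean of the 9 in both groups before division by length. How low it stood per kilobase depends on its exon length of 11243 bases over 9 transcripts, of which the cells may use only some. The same limit holds for Foxp1, with 13751 bases over 31 transcripts.

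Genes with a pattern close to that of a member were found by the root mean square difference of the 6 log2 values, each gene centred on its own mean, among 9592 entries with a mean of at least 100. Closest to Klf2 were Ager (0.173), Epcam (0.204) and Smpdl3a (0.248). Epcam, which encodes a cell adhesion molecule, had 300.2, 490 and 413 in the itaconate libraries, against 119, 208 and 176 in the NaCl libraries. It shared with Klf2 the low first replicate in each group. Closest to Foxo1 were Ctr9 (0.0232), a component of the PAF1 complex, Krba1 (0.0307) and Tor2a (0.0328). Closest to Btg1 were Vkorc1 (0.0383), Zbtb24 (0.0414) and Tap2 (0.0460).

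Other genes of the pathway did not follow a common direction across the lists, though the calls within some lists all went the same way. Counts per list are read beside the 36.0% of all tested entries that passed. Of 4 tested FOXO and FOXP relatives, 2 rose and 1 fell (median log2 fold change 0.14). Foxp4 rose by 0.42 ± 0.096 (SE, adjusted p = 0.00473) on the log2 scale and Foxo3 by 0.33 ± 0.10 (0.0223), whereas Foxp3, the regulatory T cell factor, fell by 0.88 ± 0.28 (0.0282). For Foxp3 the groups overlapped, with 208.2 in itaconate replicate 3 and 190 in NaCl replicate 1. The calls of Foxo3 and Foxp3 each ended when certain single libraries were left out, with adjusted p up to 0.108 and 0.131. Of 11 tested members of the KLF family beyond Klf2 and Klf3, 2 rose and 3 fell (45.5% called, median 0.021), and 1 fell without itaconate replicate 2 or NaCl replicate 2. Klf4, a factor that restrains T cell division, had 313 ± 89.7 with itaconate and 171 ± 22.8 with NaCl (SD, n = 3 each), and Klf16 rose by 0.54 ± 0.11. Klf10, a gene induced by TGF-beta, had 206, 269 and 262 in the itaconate libraries, against 512, 650 and 626 in the NaCl libraries, a log2 fold change of -1.28 ± 0.16 (SE, adjusted p = 6.74e-05). The family thus moved in both directions.

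Of 22 tested control genes upstream of FOXO1, 7 rose and 0 fell (median log2 fold change 0.11). The share called, 31.8%, was below the 36.0% of all tested entries, and 4 rose without the intensity trend. Pik3ip1 and Phlpp1 encode brakes on phosphoinositide 3-kinase or AKT. Pik3ip1, which encodes a membrane inhibitor of that kinase, had 991, 1042 and 833 in the itaconate libraries, against 284, 457 and 322 in the NaCl libraries (log2 fold change 1.45 ± 0.17 SE, adjusted p = 4.76e-05). Phlpp1, an AKT phosphatase gene, rose by 0.61 ± 0.13 (adjusted p = 0.00316). Kinase genes that act in the opposite direction, named after their values were seen, also rose. Sgk3 had 176, 202 and 151 in the itaconate libraries, against 56.1, 100.5 and 92.6 in the NaCl libraries (log2 fold change 1.11 ± 0.25 SE, adjusted p = 0.00470), and its call held under the 16 alternatives. Pik3ca and Pdpk1 rose by 0.28 ± 0.094 and 0.30 ± 0.090. These last calls ended when certain single libraries were left out, with adjusted p up to 0.138 for Pik3ca and 0.107 for Pdpk1.

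Genes reported elsewhere as FOXO targets split. Of 21 tested, 7 rose and 9 fell (76.2% called, median log2 fold change 0.047). Tcf7, whose product TCF-1 marks naive and memory T cells, had 14375, 14240.0 and 12906 in the itaconate libraries, against 4381, 3810.3 and 3923 in the NaCl libraries. Sesn1, a sestrin gene, rose by 1.34 ± 0.12 (SE, adjusted p = 6.65e-06), whereas its relative Sesn2 changed by -1.33 ± 0.12 (8.37e-06). Bnip3, a mitophagy receptor gene that hypoxia also induces, had 952 ± 346 with itaconate and 7313 ± 673 with NaCl (SD, n = 3 each; log2 fold change -3.00 ± 0.20 SE, adjusted p = 9.28e-07). Txnip, which encodes an inhibitor of glucose uptake, changed by -0.99 ± 0.13 (adjusted p = 9.93e-05), and Cdkn1b, which encodes the cell cycle inhibitor p27, rose by 0.48 ± 0.11 (0.00413). Sesn2, Txnip and Cdkn1b were named after their values were seen.

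The homing receptors beyond the 9 also split. Of 18 tested, 7 rose and 6 fell (72.2% called, median log2 fold change 0.10), and 4 rose without NaCl replicate 1 and 3 without the intensity trend. Ccr4, a chemokine receptor gene of cells that enter skin and inflamed tissue, changed by -1.34 ± 0.13, and Cd44, an adhesion receptor gene of activated cells, rose by 1.21 ± 0.16. In the S1P list, 1 of 10 tested genes rose and 2 fell (median 0.049). Cd69, whose product removes S1PR1 from the surface, had 1563 ± 90.4 with itaconate and 2041 ± 256 with NaCl (SD, n = 3 each; log2 fold change -0.38 ± 0.11 SE, adjusted p = 0.0154). Sphk2, a sphingosine kinase gene, changed by -0.59 ± 0.17 (adjusted p = 0.0147). S1pr3 passed at values of 14.0 to 36.9 with itaconate and 3.0 to 11.8 with NaCl (adjusted p = 0.0402). These calls of Cd69, Sphk2 and S1pr3 ended when certain single libraries were left out, with adjusted p up to 0.0766, 0.0795 and 0.143. Without itaconate replicate 2, 0 genes of the S1P list passed in either direction.

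Among 18 tested genes that transmit or end chemokine receptor signals, 6 rose and 2 fell (44.4% called, median log2 fold change 0.040), and 4 fell without itaconate replicate 3. Arrb1, which encodes beta-arrestin 1, had 2330, 2365 and 3263 in the itaconate libraries, against 6891, 9222 and 8760.3 in the NaCl libraries (log2 fold change -1.65 ± 0.14 SE, adjusted p = 4.59e-06). Rgs2 and Rgs3, which encode regulators that shorten G protein signals, rose by 0.97 ± 0.15 and 0.59 ± 0.11. In the IL-7 receptor pathway 0 of 13 tested genes rose and 7 fell (53.8% called, median -0.43), and 1 rose without NaCl replicate 2 and 2 after quantile normalization. Bcl2, the survival gene that IL-7 sustains, averaged 8849 ± 968 with itaconate and 14928 ± 469 with NaCl (SD, n = 3 each; log2 fold change -0.76 ± 0.092 SE, adjusted p = 6.52e-05). Stat5a changed by -0.63 ± 0.10 and Crlf2, whose product pairs with the IL-7 receptor alpha chain in the TSLP receptor, by -0.78 ± 0.15. Many of these genes also serve the IL-2 receptor, and IL-2 was in both cultures.

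Of 4 tested relatives of Btg1, 2 rose and 0 fell (median log2 fold change 0.25). Tob1 averaged 540.4 ± 33.8 with itaconate and 344 ± 24.5 with NaCl (SD, n = 3 each), and Btg2 averaged 2266 ± 269 with itaconate and 1659 ± 82.7 with NaCl, while Btg3 was at 0.059 ± 0.11 on the log2 scale (adjusted p = 0.723). Of 14 tested genes of mRNA deadenylation, 4 rose and 1 fell (median 0.19), and the share called, 35.7%, was close to that of all tested entries. Pan2 and Pan3, of the nuclease that starts poly(A) shortening, rose by 0.78 ± 0.12 and 0.49 ± 0.093, and Cnot7, a deadenylase gene, fell by 0.47 ± 0.097.

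**Figure D4:**
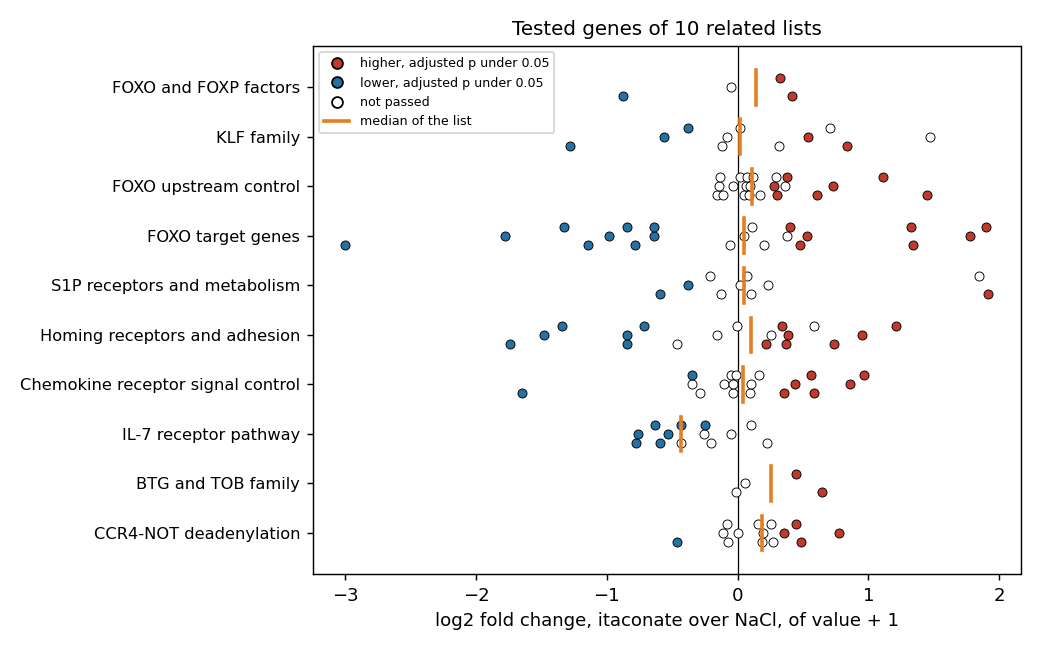
Log2 fold change of value + 1, itaconate over NaCl (horizontal axis), of each tested gene of 10 lists related to the 9 transcripts. Filled points passed at an adjusted p under 0.05 (red higher, blue lower), open points did not, and the orange bar is the median of the list. The IL-7 receptor pathway lies to the left, with 7 genes lower and 0 higher, and most other lists spread to both sides.

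The libraries held 20074301 to 22755247 estimated reads with itaconate and 21015699 to 24144988 with NaCl, and the member with the fewest, Klf3, had 172 to 499 reads per library. The labelled cell type was checked by its markers. Cd4, Cd3e and Trac were abundant in every library, with Cd4 at 13094 to 13962 with itaconate and 8559 to 10191 with NaCl. Of 7 such markers Cd4 and Cd3e rose and Cd3g and Cd2 fell, and their sum was 49341 to 52576 with itaconate and 48023 to 53687 with NaCl. Markers of other cells that could also carry Klf2, Ccr7 or S1pr1 were examined. Of 6 B cell markers the summed value was 1889 to 1996 with itaconate and 1204 to 1467 with NaCl. Ighm made most of it and was the only 1 of 5 tested to rise, while Ms4a1 stood at no more than 13.6 in every library. Of 8 myeloid markers the sum was 154 to 198 with itaconate and 56.1 to 90.5 with NaCl. Cd68 and Itgam were the only 2 tested and both rose, and S100a8 and S100a9 were at 0 in all libraries, with Lyz2 at no more than 2.0. Of 6 dendritic cell markers the sum was 139 to 184 with itaconate and 98.9 to 131 with NaCl. Zbtb46 made most of this sum and rose, and Clec9a was at 0. Itgax and Flt3 did not pass, with log2 fold changes of -0.13 and -0.25. Of 5 NK cell markers the sum was 202 to 236 with itaconate and 95.4 to 130 with NaCl. Eomes made nearly all of this sum, and it was the only 1 tested and rose. Ncr1, Klrb1c and Klra8 stood at no more than 2.1 in every library, and Klre1 was at 0. CD8 markers summed to 308 to 365 with itaconate and 363 to 408 with NaCl, erythroid markers to at most 3.7, and 4 stromal and endothelial markers to 464 to 599 with itaconate and 845 to 1037 with NaCl, with Pecam1, which T cells also express, lower. The part of such cells in the changes of the 9 transcripts was not tested. In bulk RNA, fewer cells of a type and less RNA per cell cannot be told apart.

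**Figure D5:**
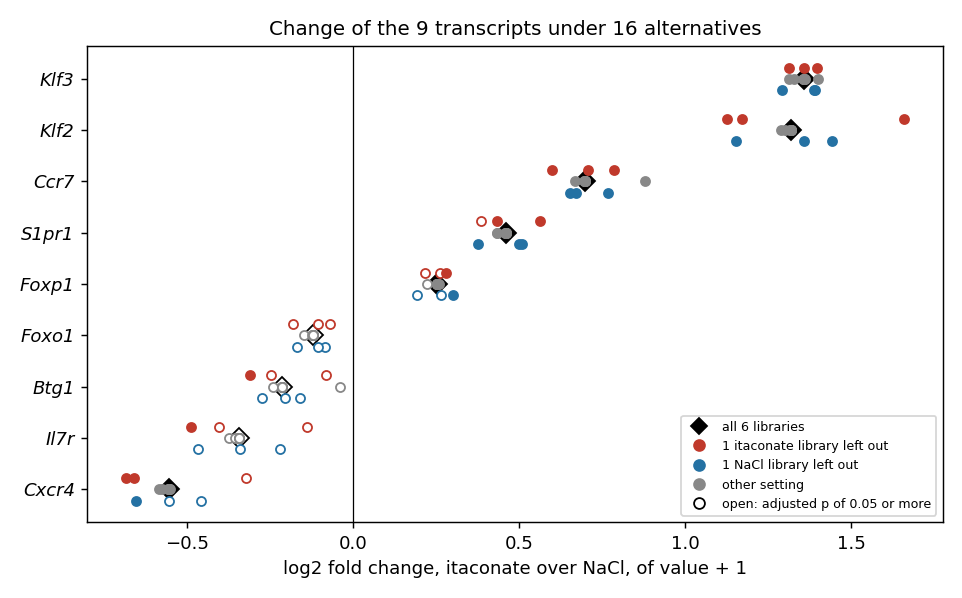
Log2 fold change of value + 1, itaconate over NaCl (horizontal axis), of each of the 9 transcripts with all 6 libraries (black diamonds), with 1 itaconate library (red) or 1 NaCl library (blue) left out, and under 10 other settings (grey). Filled symbols have an adjusted p under 0.05. Klf3, Klf2 and Ccr7 stay filled throughout, and no transcript crosses 0.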

How the data were processed

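RNA of CD4+ T cells was sequenced in 6 libraries, 3 with itaconate and 3 with NaCl, grouped by title. The authors deposited normalized RSEM estimated counts per gene symbol, a signal that is never negative. The submitters' processing notes list STAR 2.7.0f, RSEM 1.3.0 and the build mm10. Not given in the sources used here are the annotation, size factors, strand setting and filters. Divided by the value of 1 read, 79.9% to 82.0% of values per library came within 0.02 of a whole number, so count models were not used. A value is a level relative to the rest of its library.

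Entries with a mean of at least 10 were tested (13180 of 55401) on log2(value + 1) in R 4.3.3 by limma 3.58.1 (variance trend on intensity, two-sided, no covariate), with Benjamini-Hochberg adjustment at 0.05. Fold changes are on that scale and understate low genes. Where entries shared a symbol, the most abundant was given the plain name. The members and the lists were chosen with earlier results of these data known. The genes named are the 9 members, the 3 with the smallest p in each of 10 lists, and the 3 closest in pattern to Foxo1, Klf2 and Btg1. Some genes that this rule names are not reported here. The GC box and MEF2 searches were added after the sequences had been read. Positions and exon lengths are from GENCODE M21 and promoter windows from RefSeq, both on GRCm38, which is mm10. Replicates of a group differed by more than sampling noise (chi-square per degree of freedom 12.9 to 25.8). Alternatives were pseudocounts of 0.1 and 10, 2 filters, 3 scalings, the replicate number as a block, 2 variance models, and each library left out.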

Additional observations from a re-analysis of the deposited data

How the results depend on the processing

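Over the 16 alternatives the 9 members kept their direction in all 144 values, of which 128 stayed on the same side of the threshold. Klf2, Klf3, Ccr7 and Foxo1 did so under each. The counts higher and lower were 3 and 0 without the intensity trend, where Foxp1 (0.25, adjusted p = 0.105), S1pr1 (0.46, 0.0531) and Cxcr4 (-0.56, 0.121) did not pass. Foxp1 also did not pass with no filter (0.25, adjusted p = 0.061) or after upper-quartile rescaling (0.22, 0.0577). With the replicate block Btg1 passed (-0.21, adjusted p = 0.0294), which made 2 members lower. Whether same-numbered libraries were paired is not stated and was not tested. Deviations of same-numbered libraries correlated at 0.146, 0.0383 and 0.128, and each library correlated best with its own number. With the block 5636 genes were called, against 4741 without it. With each library left out, 3 to 5 members were higher and 0 to 3 lower, and log2 fold changes ran from -0.18 to -0.071 for Foxo1, 0.19 to 0.30 for Foxp1, 1.13 to 1.66 for Klf2, 1.29 to 1.40 for Klf3, 0.38 to 0.56 for S1pr1, 0.60 to 0.79 for Ccr7, -0.49 to -0.14 for Il7r, -0.68 to -0.32 for Cxcr4 and -0.31 to -0.081 for Btg1. Genes called ran from 3478 to 5636, against 4741, and 32 of 320 counts per list and direction moved by over 1.5 times. The causes were not tested. Calls near the threshold rest on 3 libraries per group.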
